A study of Mus musculus with 9 samples.

Results

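The genes analysed were 10 regulators of heritable gene silencing in mouse osteosarcoma: the PRC2 subunits Ezh2, Eed and Suz12, the DNA methylation genes Dnmt1, Dnmt3a, Dnmt3b and Uhrf1, and the TET dioxygenases Tet1, Tet2 and Tet3. They were chosen by gene symbol from the 55367 genes of the deposited count table, and all 10 were found. RNA-Seq was performed on whole spontaneous bone tumors of genetically engineered mouse models, 5 of them Myc knockin and 4 p53 driven. The p53-driven mice have the genotype Col2.3-Cre/TrpP53fl/+, in which the osteoblast promoter Col2.3 drives Cre and Cre deletes a floxed Trp53 allele. The Myc-knockin mice carry Cre-Lox-Stop-Lox with (LSL)-c-MycT58A and p53fl/+, so that the same Cre also switches on a Myc allele whose protein is harder to degrade. Both groups therefore carry Cre and 1 floxed Trp53 allele, and by genotype they differ in the Myc allele. In the study's cohorts Myc-knockin mice tended to be sacrificed younger, so age and genotype cannot be told apart. The labels give neither the age nor the sex of the mice, and they do not say that each tumor came from a separate animal. The p values set group differences against the spread between these tumors, which were treated as independent. If tumors shared an animal, these p values could be too small. Columns are named F187, F325, F331 and F368 (p53 driven) and M351, M408, M9, M624 and M664 (Myc knockin), and M351, M9 and M664 were placed in their group from the letter M of the column name.

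PRC2 places a repressive methyl mark on lysine 27 of histone H3. Ezh2 is its catalytic subunit, Eed binds the finished mark and helps to spread it, and Suz12 holds the complex together. DNA methylation at CpG sites is copied after replication by Dnmt1, which Uhrf1 guides to newly replicated DNA, and is laid down anew by Dnmt3a and Dnmt3b. The TET enzymes oxidize the methyl group, which opens the way to its removal. Ezh2, Dnmt1 and Uhrf1 are known to be most active in dividing cells, and the Myc protein drives cells into division.

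Libraries differed in ways that touch these genes. Counts per library ranged from 2716322 to 17073285. A set of 11 genes, called satellite genes here without a repeat annotation, took 23.2% to 81.0% of all counts in F187, M351, M408 and M9. In the other 5 libraries it took at most 0.0242%. The set was picked for its higher share in the first 4, so a contrast is part of its definition. Chemosensory receptor genes, taken as an estimate of genomic background, had 0.151 to 1.24 counts per kilobase of exon in these 4 libraries and at most 0.0421 in the others. M624 and M664 held 91 and 147 counts of Rn7sk, an RNA that lacks a poly(A) tail, and the other 7 libraries 11785 or more. Both are Myc knockin, as are M351, M408 and M9, which are not low in Rn7sk, so results are also given without the pair. Xist had 745 counts or more in F325, F331, F368 and M351, in which 3 Y-linked genes summed to at most 3 counts, and at most 414 in the other 5, with at least 20 Y-linked counts, so sex was spread unevenly over the groups, and its part in the results was not tested. Expression is given as CPM, the counts scaled to a library of 1e6 by edgeR's TMM-normalized library size. A floor of 3 counts corresponded to 0.114 CPM in M624 and 2.39 CPM in M9.

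The targeted gene checked the labels. Myc had 270, 520, 144, 1045 and 905 CPM in M351, M408, M9, M624 and M664, and 43.5 to 67.1 CPM in the p53-driven tumors, with no overlap (log2 fold change 3.41, edgeR adjusted p = 0.0217). Trp53 had few counts, with a Myc-knockin mean of 14.7 ± 14.0 CPM (SD, n = 5) and a p53-driven mean of 10.04 ± 2.35 CPM (SD, n = 4, edgeR adjusted p = 0.569). Counts over the whole gene do not measure the deletion of 1 allele.

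The main comparison asked whether the 10 regulators differed between the genotypes. Eed and Suz12 had higher means in the Myc-knockin tumors (36.4 and 97.8 CPM, against 19.7 and 50.8) and Dnmt3a a lower one (83.2 against 156 CPM), Dnmt1 was high in some Myc-knockin tumors, and Ezh2, Uhrf1 and Tet3 had close means. All 10 passed the filter on low counts. None was called by edgeR's quasi-likelihood test, which asked for a Benjamini-Hochberg adjusted p below 0.05 together with a 1.5-fold change. Among all 15365 genes tested 809 (5.27%) were called, 348 of them (2.26%) toward higher and 461 (3.0%) toward lower expression with Myc knockin. At an unadjusted p under 0.05 there were 3 of the 10 (Eed, Suz12 and Dnmt3a), and 26.8% of all genes. Other tools called 2 of 10 (DESeq2: Eed and Suz12, with 17.4% of all genes called) and 1 of 10 (limma-voom: Dnmt3a, with 10.8%). The groups overlapped for every one of the 10, whereas they were apart for 13.0% of all genes (5.41% with the Myc-knockin tumors higher and 7.54% with them lower). The median log2 fold change of the 10 genes was 0.45, beside 0.14 over all genes tested. These medians were 0.17 and 0.14 without M624, 0.19 and 0.08 without M624 and M664, and 0.40 and 0.97 when all genes with 1 count or more were tested.

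**Figure D1:**
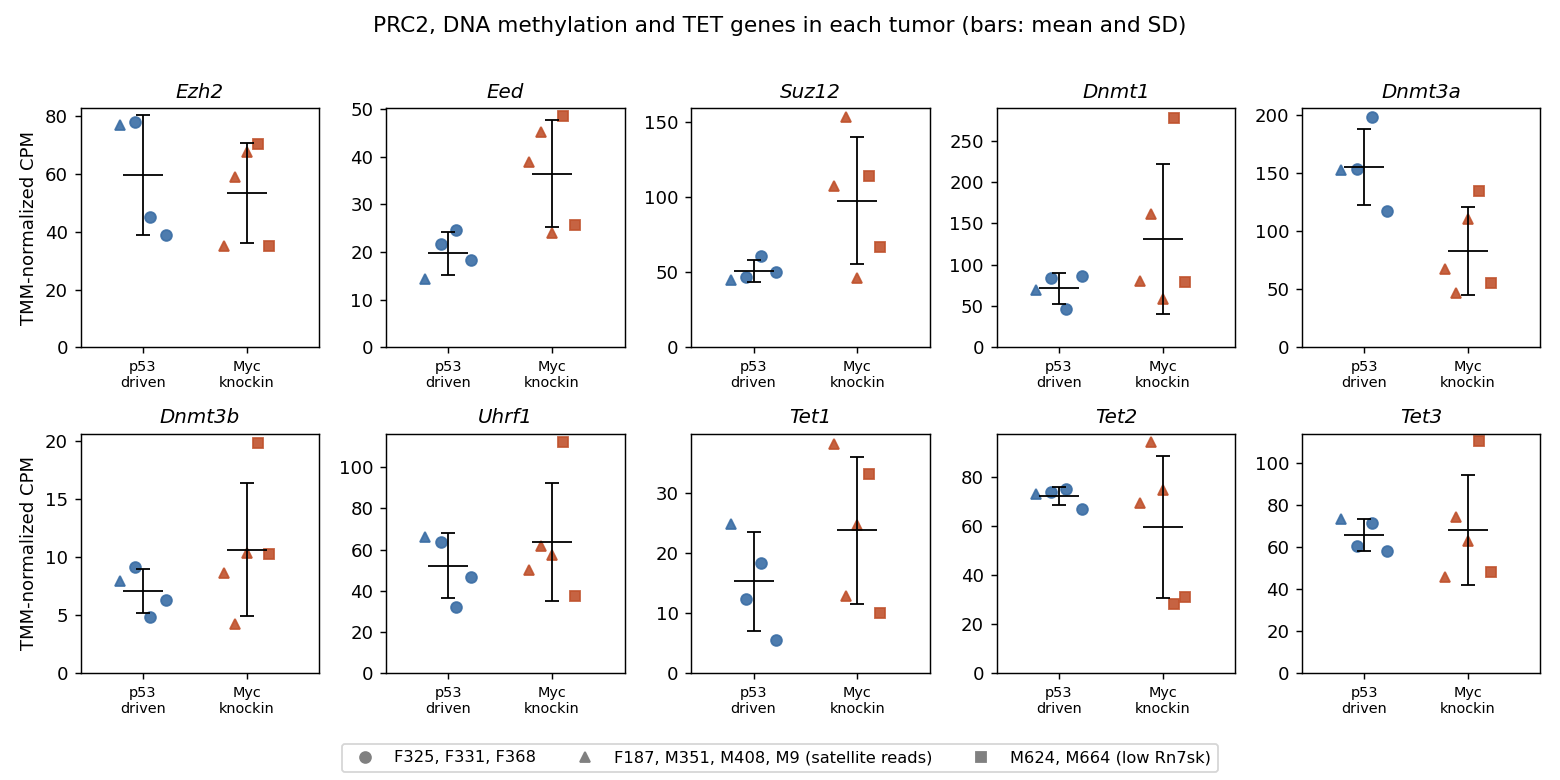
Expression of the 10 genes in TMM-normalized CPM (y axes, each from 0) in every p53-driven and Myc-knockin tumor, with points for tumors and bars for the mean and SD. The groups overlap in every panel, and Eed, Dnmt1, Dnmt3b, Uhrf1 and Tet3 have their highest value in M624.

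Ezh2 had the closest group means of the 3 PRC2 subunits. It lies on the minus strand of chr6:47530139-47595341 (mm10) as ENSMUSG00000029687. It had 77.0, 78.0, 45.0 and 38.9 CPM in F187, F325, F331 and F368, and 35.1, 59.0, 67.7, 70.4 and 35.1 CPM in M351, M408, M9, M624 and M664. Each group held both high and low tumors and the ranges lay over one another. Between the groups the log2 fold change was -0.16 (95% interval -0.89 to 0.57, edgeR adjusted p = 0.796).

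Eed (ENSMUSG00000030619, minus strand of chr7:89954654-89980983) had 14.2, 21.7, 24.6 and 18.2 CPM in the 4 p53-driven tumors. The Myc-knockin tumors had 38.8, 45.2, 23.9, 48.4 and 25.6 CPM in the order above. Of these, 4 lay above every p53-driven tumor and M9 lay just below the highest, F331. Its log2 fold change was 0.89 (95% interval 0.21 to 1.56, unadjusted p = 0.0147, edgeR adjusted p = 0.100). With DESeq2 the adjusted p was 0.0443, and when the test was limited to the 9283 genes that reach 10 counts in all tumors Eed was called at a log2 fold change of 0.99 (edgeR adjusted p = 0.0410, with 14.2% of genes called). Eed shares 261 exon bases with E230029C05Rik on the opposite strand, which had 1 to 17 counts.

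Suz12 (ENSMUSG00000017548, plus strand of chr11:79993106-80034123) had 44.6, 47.1, 60.9 and 50.5 CPM in the p53-driven tumors, a narrow range. It had 108, 154, 46.2, 114 and 66.9 CPM in the Myc-knockin tumors. Again 4 of the 5 stood above all p53-driven tumors, and M9 stood inside their range. For Suz12 the log2 fold change was 0.95 (95% interval 0.19 to 1.71, unadjusted p = 0.0188, edgeR adjusted p = 0.113). Without M9 it was 1.13 (edgeR adjusted p = 0.0400, with 10.4% of genes called), and DESeq2 over all tumors gave an adjusted p of 0.0463. M9 held 58 counts of Suz12 and 30 of Eed, the fewest of the 9 libraries for both. Eed and Suz12 had higher means in the Myc-knockin tumors also without M624 and M664 (log2 fold changes 0.94 and 1.09) and without the 4 libraries with satellite reads (0.79 and 0.79), and neither was called in either case.

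Promoter sequences were read to describe the start sites of these genes. RefSeq's promoter table for GRCm38.p6 holds 15 windows for the 10 genes, each running from 250 bases before to 50 bases after an annotated start. The windows of the 10 genes are rich in CpG, with a median of 30 CpG sites and 69.7% GC, against 7 CpG sites and 53% GC over all 32619 windows. An E2F motif, searched as TTTCCCGC or TTTGGCGC on both strands, was found in 3 of the 15 and in 514 of all windows (1.58%). It was also found in 8 of 19 windows (42.1%) of the replication genes described further on. Those 19 windows came from 15 replication genes. The E-box CACGTG, the core motif bound by Myc, was found in 1 of the 15 windows of the 10 genes, the third of Dnmt3a, and in 7.2% of all. The 3 windows with an E2F motif are shown because they belong to a PRC2 catalytic subunit, a PRC2 scaffold and the maintenance methyltransferase, and the motif stands in capitals. A match is only a run of letters, and binding was not measured. The Ezh2 window is chr6:47594981-47595280 on the minus strand, the Suz12 window chr11:79992856-79993155 on the plus strand, and the Dnmt1 window, the third of its windows, chr9:20952574-20952873 on the minus strand.
Ezh2: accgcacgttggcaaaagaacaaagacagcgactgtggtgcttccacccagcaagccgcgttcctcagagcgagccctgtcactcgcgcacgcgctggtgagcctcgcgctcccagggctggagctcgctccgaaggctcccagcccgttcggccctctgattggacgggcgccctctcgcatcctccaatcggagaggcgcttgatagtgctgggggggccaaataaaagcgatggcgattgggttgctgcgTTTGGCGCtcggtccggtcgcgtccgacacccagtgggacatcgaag
Suz12: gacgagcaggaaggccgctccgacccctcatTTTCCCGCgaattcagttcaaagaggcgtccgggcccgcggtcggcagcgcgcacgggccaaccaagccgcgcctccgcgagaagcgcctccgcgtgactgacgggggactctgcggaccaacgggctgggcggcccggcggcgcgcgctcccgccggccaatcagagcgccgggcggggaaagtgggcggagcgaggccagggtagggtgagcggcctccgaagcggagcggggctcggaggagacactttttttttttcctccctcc
Dnmt1: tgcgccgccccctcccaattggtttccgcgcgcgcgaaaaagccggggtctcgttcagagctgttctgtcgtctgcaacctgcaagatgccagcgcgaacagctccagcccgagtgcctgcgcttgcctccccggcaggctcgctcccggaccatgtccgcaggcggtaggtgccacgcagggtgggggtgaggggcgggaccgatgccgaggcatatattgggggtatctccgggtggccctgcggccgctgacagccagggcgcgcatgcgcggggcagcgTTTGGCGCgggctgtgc
The 3 genes had log2 fold changes of -0.16, 0.95 and 0.89, and none was called.

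Dnmt1, which copies methylation onto the new DNA strand, had the widest range of the 10 in the Myc-knockin tumors. It lies on the minus strand of chr9:20907209-20959888 (ENSMUSG00000004099). It had 68.7, 83.6, 45.9 and 86.8 CPM in the p53-driven tumors, and 80.0, 161, 58.2, 277 and 79.3 CPM in the Myc-knockin tumors. M624 and M408 stood above all p53-driven tumors, whereas M351, M9 and M664 lay within their range, so that the highest Myc-knockin tumor was 4.76 times the lowest. Its log2 fold change was 0.89 (95% interval -0.12 to 1.90, edgeR adjusted p = 0.242) and was 0.48 without M624.

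Uhrf1 (ENSMUSG00000001228, plus strand of chr17:56303321-56323486), the partner that brings Dnmt1 to replicated DNA, had 66.4, 63.5, 32.2 and 46.6 CPM in the p53-driven and 49.9, 61.7, 57.4, 112 and 37.6 CPM in the Myc-knockin tumors. Only M624 stood outside the range of the p53-driven tumors. A log2 fold change of 0.30 resulted (95% interval -0.48 to 1.08, edgeR adjusted p = 0.625), which was 0.05 without M624. The log2 ratio of Uhrf1 to Dnmt1 within a tumor had a Myc-knockin mean of -0.89 ± 0.56 (SD, n = 5) and a p53-driven mean of -0.46 ± 0.35 (SD, n = 4, two-sided exact permutation test, p = 0.238, adjusted over 5 ratios 0.397).

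Dnmt3a and Dnmt3b, the paired de novo methyltransferases, had opposite signs. Dnmt3a (ENSMUSG00000020661, plus strand of chr12:3806007-3914443) had 153, 154, 198 and 118 CPM in the p53-driven tumors. It had 67.7, 46.9, 111, 135 and 55.6 CPM in the Myc-knockin tumors. All of these except M624 lay below the lowest p53-driven tumor, F368. Dnmt3a gave a log2 fold change of -0.91 (95% interval -1.67 to -0.14, unadjusted p = 0.0250, edgeR adjusted p = 0.129), and with limma-voom it was -1.03 (adjusted p = 0.0323). Dnmt3aos, an antisense gene that shares 133 exon bases with Dnmt3a, had at most 10 counts in any library.

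Dnmt3b (ENSMUSG00000027478, plus strand of chr2:153649450-153687730) was low in all tumors. It had 7.90, 9.18, 4.84 and 6.32 CPM in the p53-driven and 8.62, 4.21, 10.4, 19.9 and 10.2 CPM in the Myc-knockin tumors. M9, M624 and M664 stood above the p53-driven tumors and M408 was the lowest of all 9. Its log2 fold change was 0.61 (standard error 0.45, edgeR adjusted p = 0.416), and it was 0.29 without M624 and 0.13 without M624 and M664. These values rest on 13 counts in M9 and 14 in M351, of which the genomic background estimated from chemosensory receptor genes would account for 48.8% and 41.0%.

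The balance of both enzymes within a tumor needs no scaling between libraries. The log2 ratio of Dnmt3b to Dnmt3a was -4.24, -4.04, -5.30 and -4.18 in F187, F325, F331 and F368. It was -2.95, -3.42, -3.39, -2.76 and -2.42 in M351, M408, M9, M624 and M664. Dnmt3a had more CPM than Dnmt3b in all 9 tumors, also per kilobase of exon, and every Myc-knockin tumor had a ratio above every p53-driven tumor. The means were -2.99 ± 0.43 (SD, n = 5) and -4.44 ± 0.58 (SD, n = 4), a difference of 1.45. A two-sided exact permutation test gave p = 0.0159, which with 5 and 4 tumors can go no lower. Adjusted over the 5 ratios computed it missed the threshold (Benjamini-Hochberg adjusted p = 0.0794). The adjusted p could fall below 0.05 only with other ratios near their lowest p as well, so it cannot decide the question. The difference was 1.17 without F331, 1.28 after subtraction of the estimated background, and 1.19 without M624 and M664, where 3 tumors against 4 cannot give an exact permutation p below 0.0571.

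**Figure D2:**
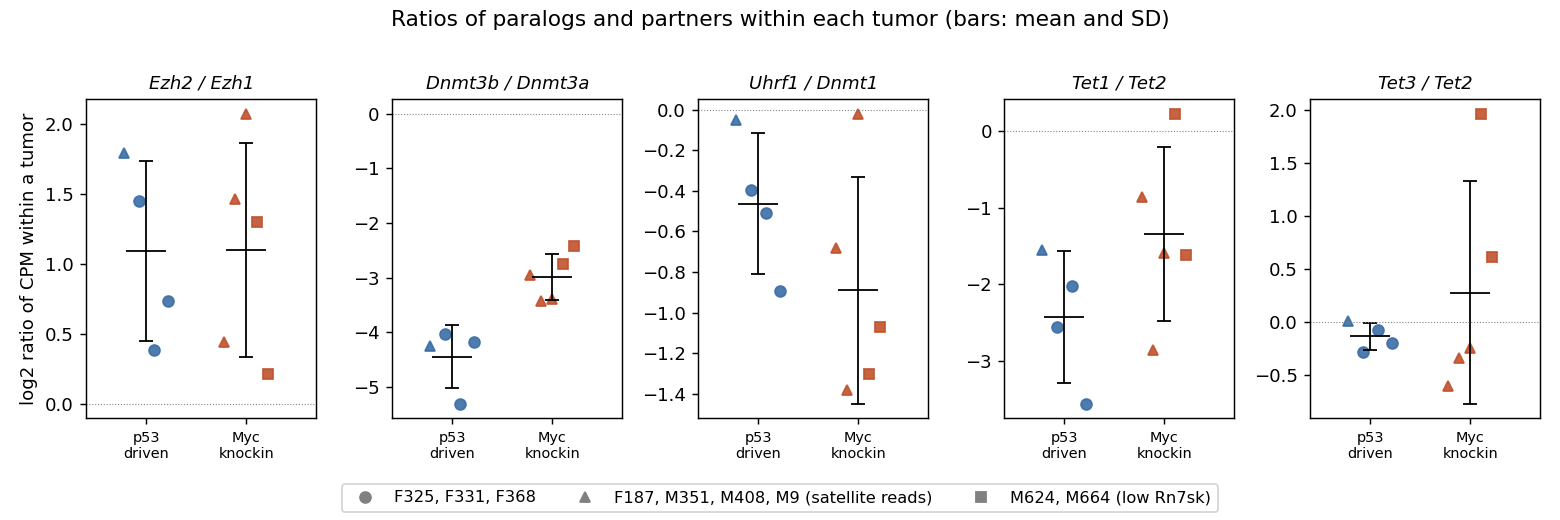
Log2 ratios of CPM within each tumor (y axes) for 5 pairs of paralogs or partners, with points for tumors and bars for the mean and SD. For Dnmt3b to Dnmt3a the 5 Myc-knockin tumors lie between -3.42 and -2.42 and the 4 p53-driven tumors between -5.30 and -4.04, and in the other 4 panels the groups overlap.

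The TET genes differed in how even they were. Tet1 (ENSMUSG00000047146, minus strand of chr10:62804570-62908996) had 24.9, 12.4, 18.3 and 5.5 CPM in the p53-driven tumors and 38.2, 12.8, 24.7, 33.1 and 10.02 CPM in the Myc-knockin tumors. It spread widely in both groups, which overlapped. Its log2 fold change was 0.64 (95% interval -0.48 to 1.76, edgeR adjusted p = 0.451), and it ranged from 0.33 without F368 to 0.93 without F187. In M9 its 31 counts stood beside 19.2 expected from genomic background (61.9%), and in M351 the background came to 28.0% of its counts.

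Tet2 (ENSMUSG00000040943, minus strand of chr3:133463679-133545139) was the most even of the 10 in the p53-driven tumors, with 73.1, 73.9, 75.3 and 66.9 CPM. The Myc-knockin tumors had 69.6, 94.3, 74.9, 28.1 and 31.2 CPM. The low values were those of M624 and M664, the libraries low in Rn7sk, and the other 3 lay within or above the p53-driven range. For Tet2 the log2 fold change was -0.29 over all tumors (95% interval -1.09 to 0.52, edgeR adjusted p = 0.651) and 0.20 without M624 and M664, where 4.61% of all genes and none of the 10 were called by edgeR. Without F187, M351, M408 and M9, which leaves M624 and M664 as the only Myc-knockin tumors, Tet2 was called lower at -1.26 (edgeR adjusted p = 0.0187, with 27.9% of all genes called). The part of the library difference in this result was not tested.

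Tet3 (ENSMUSG00000034832, minus strand of chr6:83362373-83459084) had 73.5, 60.7, 71.4 and 58.1 CPM in the p53-driven and 45.5, 74.2, 62.9, 111 and 48.0 CPM in the Myc-knockin tumors. The Myc-knockin tumors lay on both sides of the narrow p53-driven range. Its log2 fold change was 0.06 (95% interval -0.60 to 0.71, edgeR adjusted p = 0.930), and it was -0.05 without M624 and M664. The log2 ratios of Tet1 to Tet2 and of Tet3 to Tet2 had differences of 1.08 and 0.41 between the groups (two-sided exact permutation tests, p = 0.175 and 0.571). For Tet3 to Tet2, M624 and M664 had 1.97 and 0.62 and the other 7 tumors at most 0.01.

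**Figure D3:**
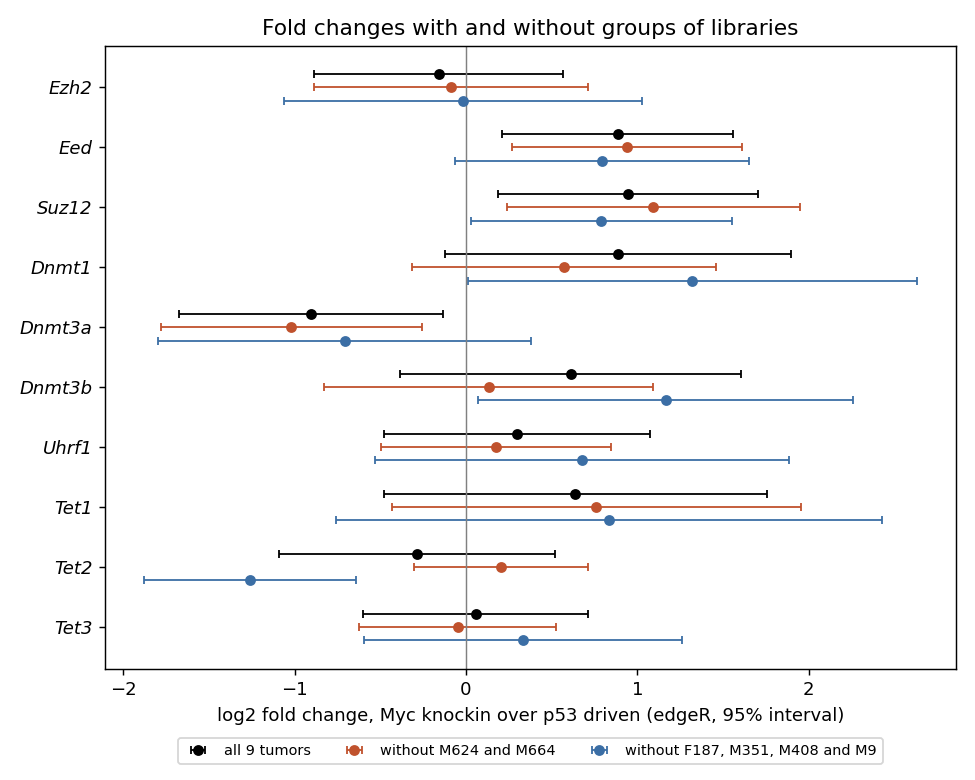
Log2 fold changes of the 10 genes (x axis, Myc knockin over p53 driven, points) with 95% intervals from edgeR, fitted on all 9 tumors, without M624 and M664, and without the 4 libraries with satellite reads. Tet2 lies at -0.29, 0.20 and -1.26 in these fits, and Eed and Suz12 lie above 0 and Dnmt3a below 0 in all 3.

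Levels of different genes were compared as CPM per kilobase of exon. In the p53-driven tumors the order of the mean levels was Uhrf1 (12.2), Suz12 (10.3), Dnmt1 (9.66), Dnmt3a (9.36), Ezh2 (8.94), Eed (5.14), Tet2 (4.29), Tet3 (3.95), Dnmt3b (1.38) and Tet1 (0.988). Neighbours in this order had overlapping ranges over the 4 tumors, except that Tet3 and Dnmt3b were apart. In the Myc-knockin tumors the order of the mean levels was Suz12 (19.8), Dnmt1 (17.8), Uhrf1 (14.97), Eed (9.50), Ezh2 (8.01), Dnmt3a (5.00), Tet3 (4.09), Tet2 (3.53), Dnmt3b (2.09) and Tet1 (1.54). All neighbours overlapped there. Ezh1, the paralog that can replace Ezh2 in PRC2, had 3.64 CPM per kilobase in the p53-driven and 3.27 in the Myc-knockin tumors, and the log2 ratio of Ezh2 to Ezh1 differed by 0.01 between the groups, with SDs of 0.64 (n = 4) and 0.77 (n = 5) (two-sided exact permutation test, p = 1.0).

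Since several of the 10 genes are tied to cell division, each was also set beside 19 genes of DNA replication (Mcm, Gins, Rfc and related genes) in the same tumor. The mean log2 CPM of the replication genes was 5.06 ± 0.68 (SD, n = 5) with Myc knockin and 3.86 ± 0.33 (SD, n = 4) without it, and the groups did not overlap. Of these 19 genes, 6 rose (Mcm5, Mcm7, Rfc4, Rfc5, Gins1 and Pole, edgeR adjusted p between 0.0328 and 0.0486), beside 2.26% of all genes called higher. The median log2 fold change over the whole list was 1.48. Without M624 and M664 the median was 1.05 and 2 genes were called (Mcm5 and Pole, with 4.61% of all genes called). DESeq2 over all tumors called 13, with 17.4% of all genes called. Without F187, F325, F331 or F368 edgeR called none of them, with 10 to 15 at an unadjusted p under 0.05. Mcm5, a subunit of the replicative helicase, had 11.5 to 26.9 CPM in the p53-driven and 41.9 to 134 CPM in the Myc-knockin tumors. Pole, the catalytic subunit of a replicative polymerase, had 15.9 to 26.9 and 35.3 to 117 CPM.

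Relative to this mean, 6 of the 10 genes were lower in every Myc-knockin tumor than in any p53-driven tumor. These were Ezh2, Dnmt3a, Dnmt3b, Uhrf1, Tet2 and Tet3, and of all genes tested 31.3% were lower in this way. Ezh2 stood at 2.12, 2.15, 1.93 and 1.72 above the replication mean on the log2 scale in the p53-driven tumors, and at 0.67, 0.95, 1.41, -0.08 and 0.13 in the Myc-knockin tumors. The difference of means was -1.36 for Ezh2, -2.20 for Dnmt3a, -0.96 for Uhrf1, -1.64 for Tet2, -1.22 for Tet3 and -0.75 for Dnmt3b. Eed, Suz12, Dnmt1 and Tet1 overlapped between the groups on this scale, with differences of -0.35, -0.37, -0.53 and -0.55. These are descriptions without a test, and the replication genes' own difference is part of each.

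**Figure D4:**
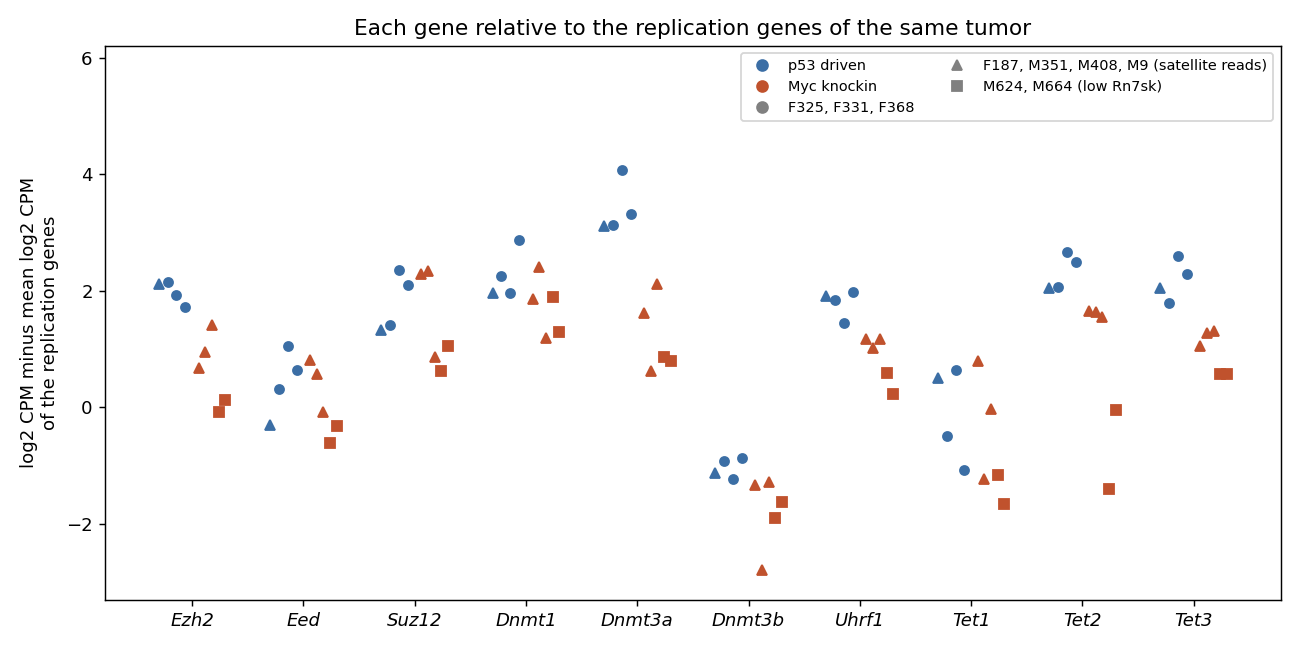
Each gene's log2 CPM minus the mean log2 CPM of 19 replication genes of the same tumor (y axis), by gene (x axis), with 1 point per tumor. Ezh2, Dnmt3a, Dnmt3b, Uhrf1, Tet2 and Tet3 lie lower in every Myc-knockin tumor than in every p53-driven tumor, and Eed, Suz12, Dnmt1 and Tet1 overlap.

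Genes with the most similar pattern over the 9 tumors were sought for each of the 10 among 9530 genes, by the root mean square difference of centred log2 CPM. The closest were Zfp367 and Smad5 for Ezh2 (0.19 and 0.23), Tsr1 and Naa25 for Eed (0.12 and 0.19), and Baz1a and Nop58 for Suz12 (0.17 and 0.21). For the methylation genes they were Btg2 and Hnrnpa3 for Dnmt1 (0.26 and 0.28), Mcm4 and S1pr2 for Uhrf1 (0.22 and 0.24), Tbc1d24 and Cep41 for Dnmt3a (0.20 and 0.31), and Usp21 and Slc8b1 for Dnmt3b (0.21 and 0.23). For the TET genes they were Zranb3 and Kntc1 for Tet1 (0.44 and 0.49), Eif3s6-ps2 and Cenpc1 for Tet2 (0.19 and 0.21), and Enc1 and Trappc13 for Tet3 (0.17 and 0.17). Tet1 had the most distant neighbours of the 10. All tumors entered this measure, so it also carries what the libraries share.

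Other subunits and partners were taken from lists of known genes. Over all genes tested, edgeR called 5.27%, DESeq2 17.4% and limma-voom 10.8%. Of 10 further PRC2 subunits, 9 were tested and none was called by edgeR, with 2 at an unadjusted p under 0.05 (DESeq2 called 2, Phf19 and Epop, and limma-voom 1, Phf19). Epop, a modulator of PRC2, had 1.12 to 10.2 CPM in the p53-driven tumors and 14.2, 14.1, 2.39, 76.4 and 51.9 CPM in the Myc-knockin tumors (log2 fold change 2.90, edgeR adjusted p = 0.0770). M624 and M664 had its highest values and M9 overlapped with the p53-driven tumors. The list's median log2 fold change was 0.17, close to the 0.14 of all genes.

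PRC1 is the second Polycomb complex and ubiquitinates histone H2A. All 20 of its listed subunits were tested, 1 rose, 1 fell, and the median log2 fold change was -0.02. Pcgf6, which defines a variant PRC1, had 5.53, 3.66, 5.36 and 4.38 CPM in the p53-driven and 16.0, 17.8, 16.7, 20.4 and 19.9 CPM in the Myc-knockin tumors. Its groups were far apart and each was even (log2 fold change 1.95, edgeR adjusted p = 0.0175). Phc3, a polyhomeotic subunit, had 73.3 to 103 CPM in the p53-driven and 26.5 to 54.2 CPM in the Myc-knockin tumors (log2 fold change -1.06, edgeR adjusted p = 0.0428). Without M624 and M664, Pcgf6 was still called (1.90, edgeR adjusted p = 0.0272) and Phc3 was not (-0.80, edgeR adjusted p = 0.0732). Neither of the H3K27 demethylases, Kdm6a and Kdm6b, was called by edgeR or limma-voom, with 1 at an unadjusted p under 0.05 in edgeR. Kdm6b had 33.4 to 49.1 CPM in the p53-driven and 49.4 to 154 CPM in the Myc-knockin tumors (log2 fold change 1.03, edgeR adjusted p = 0.0957), and DESeq2 called it. With a minimum of 10 counts in all tumors edgeR called Kdm6b, with 14.2% of genes called. Without the 4 libraries with satellite reads it called both genes, in opposite directions. That fit leaves M624 and M664 as the only Myc-knockin tumors and called 27.9% of all genes.

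Of 9 partners of the DNA methyltransferases, 8 were tested and 2 rose, with a median log2 fold change of 1.37, which was 0.97 without M624, 0.75 without M624 and M664, and 0.80 with limma-voom. Hells, a chromatin remodeler needed for methylation of packed DNA, had 22.1, 21.4, 17.4 and 18.2 CPM in the p53-driven and 73.2, 72.0, 34.3, 47.3 and 30.7 CPM in the Myc-knockin tumors (log2 fold change 1.38, 95% interval 0.67 to 2.09, edgeR adjusted p = 0.0392). Cdca7, which recruits Hells, had 9.33 to 22.5 CPM and 40.6 to 105 CPM (log2 fold change 2.10, edgeR adjusted p = 0.0243). For both genes every Myc-knockin tumor was above every p53-driven tumor. Both were also called without M624 and M664 (log2 fold changes 1.67 and 1.77, edgeR adjusted p = 0.0337 and 0.0347, with 4.61% of all genes called). Without the libraries with satellite reads both were called as well (1.05 and 2.87, edgeR adjusted p = 0.0441 and 0.0075). That fit leaves M624 and M664 as the only Myc-knockin tumors and called 27.9% of all genes. Zfp57 and Cdca7l had log2 fold changes of 2.19 and 1.49 and were not called (edgeR adjusted p = 0.152 and 0.0644). None of 8 methyl-CpG readers was called by edgeR, with 4 at an unadjusted p under 0.05, 1 called by DESeq2 (Zbtb38) and none by limma-voom. Zbtb38 had the largest change, -1.42 (edgeR adjusted p = 0.0769).

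Downstream of the TET enzymes, glycosylases and repair enzymes remove oxidized bases, and isocitrate dehydrogenases supply the cofactor 2-oxoglutarate. Of 16 such genes, all tested, 1 rose and 1 fell, with a median log2 fold change of 0.98. The median was 0.65 without M664, 0.54 without M624 and M664, and 0.51 with limma-voom. Apex1, the endonuclease of base excision repair, had 4.34 to 7.62 CPM in the p53-driven and 9.23 to 45.9 CPM in the Myc-knockin tumors (log2 fold change 1.89, edgeR adjusted p = 0.0386). Idh1, the cytosolic isocitrate dehydrogenase, had 72.3, 90.5, 67.2 and 68.9 CPM in the p53-driven tumors and 35.1, 26.4, 33.5, 41.9 and 45.9 CPM in the Myc-knockin tumors. It fell without overlap (log2 fold change -1.03, 95% interval -1.56 to -0.49, edgeR adjusted p = 0.0399). Without M624 and M664 Idh1 was still called (-1.196, edgeR adjusted p = 0.0367) and Apex1 was not (1.37, edgeR adjusted p = 0.0630). Without the 4 libraries with satellite reads Apex1 was called (2.33, edgeR adjusted p = 0.0092) and Idh1 was not (-0.76, edgeR adjusted p = 0.0787). In that fit M624 and M664 are the only Myc-knockin tumors, and 27.9% of all genes were called.

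Methylation of histones and DNA uses S-adenosylmethionine. Of 8 methyl donor genes, all tested, 1 rose and 1 fell, with a median log2 fold change of 0.18. Ahcy, which clears the product that inhibits methyltransferases, had 4.34, 3.97, 3.98 and 3.28 CPM in the p53-driven and 9.23, 14.3, 11.2, 49.6 and 33.7 CPM in the Myc-knockin tumors. It rose without overlap (log2 fold change 2.63, 95% interval 1.46 to 3.81, edgeR adjusted p = 0.0276), most in M624 and M664, and it was also called without them (1.65, edgeR adjusted p = 0.0394). Its relative Ahcyl1 had 187.2 to 286 CPM in the p53-driven and 114 to 133 CPM in the Myc-knockin tumors (log2 fold change -0.99, edgeR adjusted p = 0.0445, and 0.0671 without M624 and M664).

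The calls in these lists depended on single tumors. Without F325, F331 or F368 the whole table held 8, 6 and 5 called genes, and none of the called list genes above (Pcgf6, Phc3, Hells, Cdca7, Apex1, Idh1, Ahcy, Ahcyl1 and the 6 replication genes) was among them. Over the 9 fits that each left out 1 tumor, Pcgf6 and Cdca7 were called in 6, Ahcy and Mcm5 in 5, Apex1 and Pole in 4, Hells, Idh1, Rfc4 and Rfc5 in 2, Mcm7 in 3, and Phc3, Ahcyl1 and Gins1 in 1. The sizes of the changes moved less. Over these fits the log2 fold change of Pcgf6 lay between 1.85 and 2.03 (edgeR adjusted p from 0.0157 to 0.0674), that of Cdca7 between 1.82 and 2.41 (from 0.0208 to 0.109), that of Hells between 1.23 and 1.55 (from 0.0250 to 0.154), and that of Idh1 between -1.10 and -0.90 (from 0.0373 to 0.136).

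**Figure D5:**
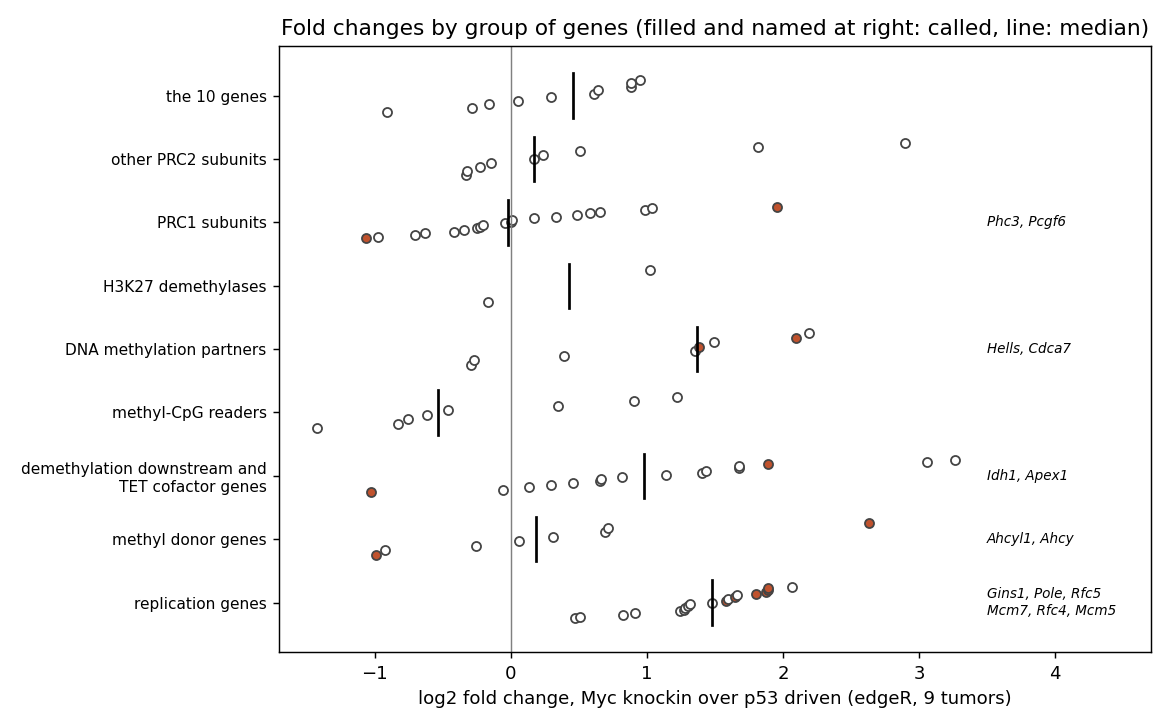
Log2 fold changes, Myc knockin over p53 driven (x axis), of the 10 genes and of 8 lists of related genes (y axis), with 1 point per gene, filled and named at the right where edgeR called it, and a line at each list's median. The medians are 0.45 for the 10 genes, 1.37 for the DNA methylation partners and 1.48 for the replication genes, and without M624 and M664 they were 0.19, 0.75 and 1.05.

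Genes that PRC2 or DNA methylation are known to keep silent were mostly too low to test. Of 20 developmental genes listed as PRC2 targets, 9 were tested and 1 rose, Cdkn1c, an imprinted cell cycle inhibitor. It had 0.519 to 4.74 CPM in the p53-driven and 3.98 to 25.5 CPM in the Myc-knockin tumors (log2 fold change 2.99, edgeR adjusted p = 0.0411). The groups overlapped, and Cdkn1c was not called without M624 and M664 or in 6 of the 9 fits that left out 1 tumor. It could not pass the filter on low counts through the p53-driven tumors alone, so its p value and call are given as a description. With a minimum of 10 counts in all tumors, 2 genes of this list were tested and 0 called by edgeR. Of 14 germline genes listed as silenced by methylation, 3 were tested and none was called by edgeR, with 1 at an unadjusted p under 0.05. This was Tdrd1, which was called by DESeq2 and limma-voom. Tdrd1 had no counts in F325, F331 and F368, 2.76 CPM in F187 and 3.63 to 25.5 CPM in the Myc-knockin tumors (edgeR adjusted p = 0.0585). It could therefore pass the filter on low counts only through the group where it was high. Its p values and calls rest on that selection and are given as a description. F187 is the p53-driven library with satellite reads, and M351, M408 and M9 are such libraries in the Myc-knockin group. Their estimated genomic background was 0.711 counts per kilobase in F187, 1.12 in M351, 0.151 in M408 and 1.24 in M9. A list that passed the filter only in part does not describe all its genes.

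Marker genes of some cell types differed between the groups as well, among them those of osteoblasts, the lineage in which Col2.3 drives Cre. Of all genes tested, edgeR called 3.0% lower. The summed level of 10 macrophage markers was 754 to 1210 CPM in the p53-driven and 134 to 446 CPM in the Myc-knockin tumors, with 3 of 10 genes called lower (Cd68, Csf1r and Tyrobp). The summed level of 8 osteoclast markers was 2716 to 14151 and 124 to 2570 CPM, with 6 of 8 called lower. The summed level of 10 osteoblast markers was 65831 to 141699 and 3621 to 41461 CPM, with 1 of 10 called lower, Bglap, which was at or under 3.98 CPM in the Myc-knockin tumors. Of these 10 markers that were called, only Atp6v0d2 of osteoclasts was called in all 9 fits that left out 1 tumor. The main filter could admit a marker through the p53-driven tumors alone, where these were high, so their calls are given as a description. With a minimum of 10 counts in all tumors, edgeR called lower 2 of 6 tested macrophage and 3 of 4 tested osteoclast markers. It also called 2 of 9 tested osteoblast markers lower, Col1a1 and Col1a2 but not Bglap, with 14.2% of all genes called. Of 22 tested markers of T cells, B cells, neutrophils, endothelium, red cells and muscle, none was called by edgeR or limma-voom under the main filter. With edgeR 3 had an unadjusted p under 0.05, and DESeq2 called 1 (S100a9). Only 1 of 6 T cell, 1 of 4 B cell and 2 of 7 red cell markers were tested. With all genes of at least 1 count tested, edgeR called Hba-a1, Hbb-bs and Hbb-bt higher. Without the 4 libraries with satellite reads it called 4 globin genes higher and Myh4 lower, with 27.9% of all genes called. That fit leaves M624 and M664 as the only Myc-knockin tumors. Without M9 alone edgeR called Kdr lower, with 10.4% called. In whole tumors fewer cells of a type and less RNA per cell cannot be told apart, and the part of these marker levels in the values of the 10 genes was not tested.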

How the data were processed

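RNA was extracted from whole tumors and mRNA was enriched with oligo-dT probes. The authors trimmed the reads (Trim Galore), aligned them to mm10 (STAR) and assigned them to genes (featureCounts). They deposited whole-number counts per gene, with no scaling, as 1 table of 55367 genes, whose 9 columns were used by group. The library kit marks strand, and the strand setting of the counting is not given in the sources used here. The members and gene lists, the ratios, the library groups left out and the tests were chosen with earlier results of these data known.

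Groups were compared in R 4.3.3 with edgeR 4.0.16 (TMM, filterByExpr with a minimum count of 10, glmQLFit and glmQLFTest, no covariates), with Benjamini-Hochberg adjustment over 15365 genes. Calls needed an adjusted p below 0.05 and a 1.5-fold change. Log2 CPM used a prior count of 2. The 5 ratios were compared by exact permutation over all 126 arrangements of the tumors. All 10 members were named. From a list, genes were named if called or among the 3 with the largest fold change, and for each member the 2 genes of most similar pattern (mean of at least 10 CPM).

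Satellite genes were 11 genes that took over 0.02% of the counts of M9 and, in F187, M351, M408 and M9, over 20 times their highest share elsewhere. The background of genomic reads came from 1818 chemosensory receptor genes (GENCODE vM21 exon lengths). Alternatives were DESeq2 1.42.0, limma-voom (limma 3.58.1), other normalizations and filters, no fold limit, removal of libraries or satellite genes, subtraction of the background, and each tumor left out. List counts under these alternatives were added after the data were seen. Floors cover counting error only. Promoters came from RefSeq for GRCm38.p6, the assembly behind mm10.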

Additional observations from a re-analysis of the deposited data

Results flagged for a closer look

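In 30 groups of 4 or 5 values (expression of the 10 genes and the 5 ratios in each genotype), 1 tumor stood far from the others of its group. The log2 ratio of Dnmt3b to Dnmt3a was -5.30 in F331, and the other 3 p53-driven tumors lay between -4.24 and -4.04. The gap to the nearest tumor was 0.838 of the group's range, above Dixon's critical value of 0.829 for 4 values. Chance gives such a gap in about 1 of 20 groups. F331 had the highest Dnmt3a (198 CPM) and the lowest Dnmt3b (4.84 CPM, 56 counts) of the p53-driven tumors.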

How the results depend on the processing

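No paired analysis was possible because the columns carry no replicate numbers that tie tumors of both groups together. The number of genes called over the whole table was 809 and became 2670 with DESeq2, 1663 with limma-voom, 136 with library size alone, 494 with no filter beyond 1 count, 1316 with a minimum of 10 counts in all tumors and 4595 without the 4 libraries with satellite reads. Leaving out 1 tumor, it ranged from 5 (without F368) to 1588 (without M9). Of the 10 genes, 2 were called with DESeq2, 1 each with limma-voom, with the minimum of 10 counts and without the libraries with satellite reads, and 0 to 1 with a tumor left out. The sign of the log2 fold change turned for Tet2 without M624 and M664 (0.20), for Tet3 with limma-voom (-0.21), without M624 and M664 (-0.047) and with a tumor left out (-0.13 to 0.18), and for Ezh2 with a tumor left out (-0.34 to 0.0029). The ratio of Dnmt3b to Dnmt3a kept its direction in every alternative run, with differences of 1.19 without M624 and M664 and 1.92 without the libraries with satellite reads, where the smallest exact permutation p are 0.0571 and 0.2, and 1.17 to 1.59 with a tumor left out. The median log2 fold change of the 10 genes and of all genes was 0.45 and 0.14, and it was 0.42 and 0.03 with library size alone, 0.18 and -0.04 with limma-voom, 0.40 and 0.97 with no filter beyond 1 count, 0.17 and 0.14 without M624, and 0.19 and 0.08 without M624 and M664. The difference in Tet3 to Tet2 was -0.26 without M624 and M664 and -0.0085 to 0.64 with a tumor left out. The difference in Ezh2 to Ezh1 was -0.10 without the libraries with satellite reads and -0.24 to 0.24 with a tumor left out. The cause of these shifts was not tested.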
